A study of Mus musculus with 16 samples.

Results

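The genes described here are 10 genes of inflammatory cytokine signalling and of the inflammasome. They were taken by their symbols, not by a cut on their values, from the 17951 genes of the deposited table. Earlier results of these data were known when these genes were chosen. They are the cytokines Tnf, Il1a, Il1b and Il18, the cytokine receptor chains Il6ra, Il10ra and Il10rb, and the inflammasome genes Nlrp3, Pycard and Casp1. All 10 were among the 17951 genes, so the whole group could be followed in every library. One of them, Il6ra, was lower in TG Me-X04+ microglia than in both other groups, Il1a was lower than in WT microglia, and the other 8 were not called in any comparison.

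Microglia, the resident macrophages of the brain, are a main source of these cytokines in nervous tissue. Tnf encodes tumour necrosis factor, and Il1a and Il1b encode the ligands of the interleukin-1 receptor. Pro-IL-1β and pro-IL-18 are inactive until they are cut by caspase-1, the product of Casp1. Caspase-1 is activated on the inflammasome, a complex in which the sensor NLRP3 recruits the adaptor ASC, the product of Pycard. The induction of transcription and the cutting of the precursors are separate steps, and RNA sequencing measures only transcript levels. Il6ra encodes the chain that binds interleukin-6, which signals through a partner chain encoded by Il6st, while Il10ra and Il10rb encode both chains of the receptor for interleukin-10, an anti-inflammatory cytokine.

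The 16 RNA-seq libraries were made from microglia sorted from mouse brain as Cd11b+ and Cd45+ cells, with a further gate on CX3CR1 in the methods of the study. The mice carried the label of the 5xFAD strain, an Alzheimer's disease model in which mutant human transgenes are driven by the neuronal Thy1 promoter, so microglia meet amyloid beta made by neurons. All mice, WT included, had been injected with Methoxy-X04 (Me-X04), a dye that crosses into the brain and binds amyloid beta aggregates. The 7 WT libraries came from 2-month-old Me-X04 neg microglia by their labels, the 5 TG Me-X04- libraries from dye-negative microglia of 6-month-old transgenic mice, and the 4 TG Me-X04+ libraries from dye-positive, that is phagocytic, microglia of 6-month-old transgenic mice. Same-numbered libraries of both TG groups carried 1 animal label. By the labels, age and genotype cannot be told apart in a comparison with WT, and the methods of the study give other ages.

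WT libraries had from 15623664 to 22119327 counted reads, TG Me-X04- libraries from 17216633 to 25184600 and TG Me-X04+ libraries from 22430251 to 27579017. Counted reads alone do not give the depth. The scaled sizes of TG Me-X04+ replicates 1 and 2 were 0.589 and 0.543 of their counted reads, the lowest of the 16 libraries. Both also had the most genes at 0 reads, 1831 and 1781. The libraries fell into 2 sets on the leading principal component of values centred by group, which held 37.8% of their variance. Set A had 7 libraries (replicates 1 to 3 of WT and replicates 1 and 2 of both TG groups) and set B had 9, and no label names them. The share of reads on mitochondrial genes was between 12.6% and 31.4% in WT, between 20.6% and 44.8% in TG Me-X04- and between 31.3% and 56.8% in TG Me-X04+ libraries, with both TG Me-X04+ libraries of set A at 55.2% or more. All 9 microglial markers were present in every group, with summed levels between 4280 and 8290 RPKM over the 16 libraries. Markers of neutrophils summed to at most 26.0 RPKM, of monocytes to at most 10.3 and of border macrophages to at most 19.4, and none of the 6 T and NK cell markers was among the genes analysed here. The border macrophage sums were 13.9 and 19.4 RPKM in TG Me-X04+ replicates 1 and 2 and between 1.54 and 6.61 in the other libraries. The part of such cells in the levels below was not tested.

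Promoters are shown for the genes that the comparisons turn on or that varied most between libraries: Il6ra and Il1a, which were called, and Il1b and Tnf, the pair with the lowest levels. RefSeq promoters on GRCm38.p6 matched 8 of the 10 genes by symbol. Each sequence is the 250 bases before the start of the gene, 5′ to 3′ on the strand of the gene, which is the minus strand for all 4. They lie at chr3:89913197-89913446 for Il6ra, chr2:129309973-129310222 for Il1a, chr2:129371140-129371389 for Il1b and chr17:35202008-35202257 for Tnf. Capitals mark matches on either strand to TATAAA (the TATA box), TGANTCA (AP-1), GAGGAA (a core bound by PU.1 and other ETS factors) or GGANTTTCC (a type of κB site).
Il6ra: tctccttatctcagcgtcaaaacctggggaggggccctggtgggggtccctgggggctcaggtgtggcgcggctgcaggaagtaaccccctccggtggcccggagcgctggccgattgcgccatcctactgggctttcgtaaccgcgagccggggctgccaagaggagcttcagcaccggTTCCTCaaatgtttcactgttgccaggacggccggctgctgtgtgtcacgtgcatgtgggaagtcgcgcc
Il1a: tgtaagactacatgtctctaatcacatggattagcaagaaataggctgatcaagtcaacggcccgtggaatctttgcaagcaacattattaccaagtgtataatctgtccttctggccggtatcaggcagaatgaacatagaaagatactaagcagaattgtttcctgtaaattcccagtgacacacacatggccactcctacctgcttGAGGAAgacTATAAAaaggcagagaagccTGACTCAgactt
Il1b: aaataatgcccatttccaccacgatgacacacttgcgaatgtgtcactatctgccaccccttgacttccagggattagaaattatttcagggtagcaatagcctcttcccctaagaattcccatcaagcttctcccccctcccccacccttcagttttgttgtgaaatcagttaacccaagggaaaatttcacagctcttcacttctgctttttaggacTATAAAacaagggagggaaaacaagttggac
Tnf: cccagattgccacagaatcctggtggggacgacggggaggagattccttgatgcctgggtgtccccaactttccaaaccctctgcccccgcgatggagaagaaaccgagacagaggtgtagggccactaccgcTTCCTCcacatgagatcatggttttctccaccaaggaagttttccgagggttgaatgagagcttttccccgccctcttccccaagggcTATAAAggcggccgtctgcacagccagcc

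The TATA letters stood 27 bases before the start in Il1a, 26 in Il1b and 24 in Tnf, and were not in the window of Il6ra. The AP-1 letters were in the window of Il1a only among these 4, 6 bases before the start, and the PU.1 letters in those of Il6ra, Il1a and Tnf. Over 32851 promoters of the same length, 12.4% held the TATA letters, 6.75% the AP-1 letters, 23.3% the PU.1 letters and 1.07% the κB letters, which none of the 4 windows held. No 2 matches overlapped. A match describes letters and not a bound site.

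Levels are given as log2 RPKM, that is reads per kilobase of gene, scaled to the depth of the library, after the addition by the authors of a prior of about 2 reads. In WT microglia the highest of the 10 genes was Il6ra, with a mean level of 5.71 ± 0.148 log2 RPKM (SD, n = 7), above 97.7% of all genes by mean level. Il10ra followed at 5.22 ± 0.480, Il1a at 5.10 ± 0.350, Casp1 at 5.03 ± 0.592, Il18 at 4.64 ± 0.376, Pycard at 4.52 ± 0.728, Il10rb at 3.72 ± 0.255 and Nlrp3 at 2.74 ± 0.412. Il1b, at -0.23 ± 0.820, and Tnf, at -1.16 ± 1.22, came last. Neighbours in this order overlapped between libraries, except that every WT library of Nlrp3 was above every WT library of Il1b. The inflammasome sensor was therefore the lowest of the 3 inflammasome genes, and the cytokine Il1a stood 5.33 ± 0.822 on the log2 scale above its relative Il1b in WT libraries (range 4.02 to 6.59). The same difference was 4.24 ± 0.832 in TG Me-X04- (n = 5) and 3.30 ± 2.59 in TG Me-X04+ libraries (n = 4).

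**Figure D1:**
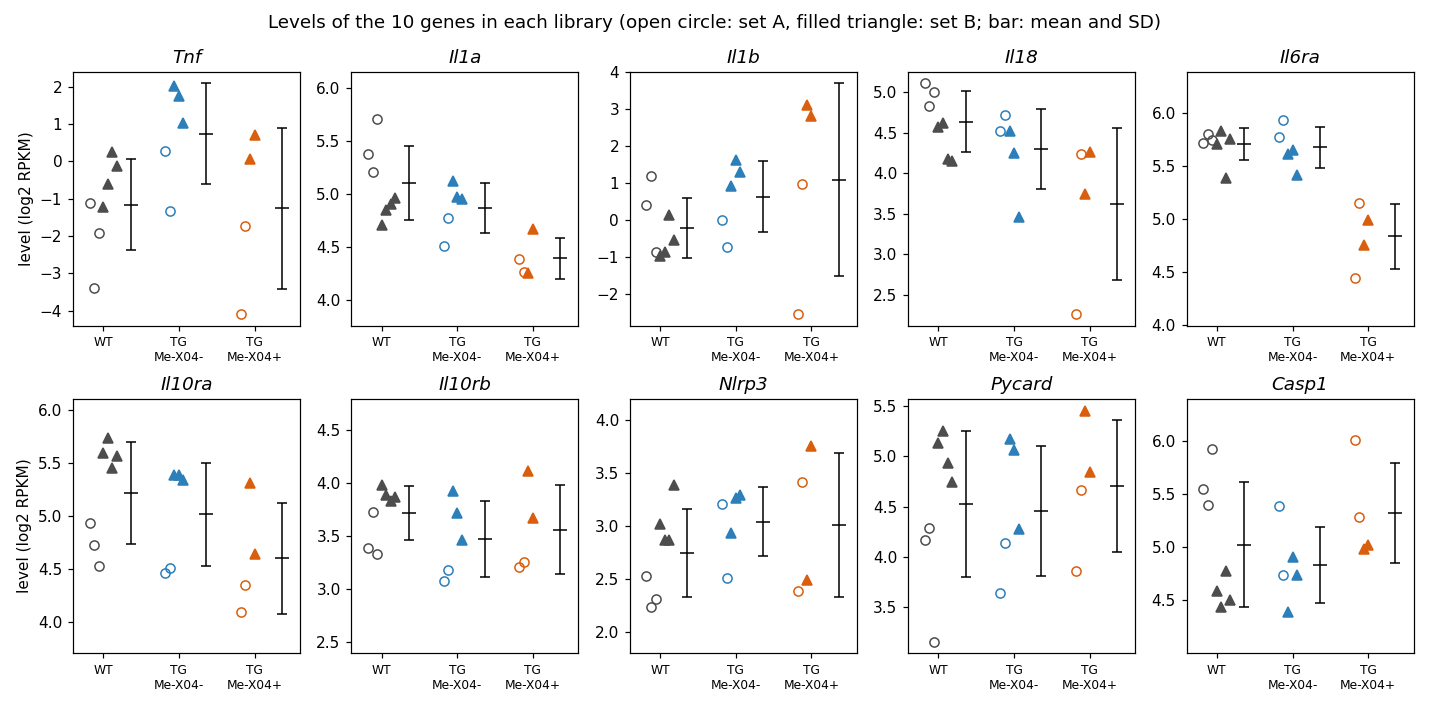
Levels (log2 RPKM) of the 10 genes in each of the 16 libraries by group. Open circles are libraries of set A, filled triangles libraries of set B, and the bar beside each group is its mean and SD. All 4 TG Me-X04+ libraries of Il6ra lie below all 12 others, while most other genes spread as widely within a group as between groups.

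The comparison of TG Me-X04+ with TG Me-X04- microglia asked what differs between microglia of transgenic brains that did and did not take up the dye. Each gene was compared with limma on the log2 values of all 16 libraries, with p-values adjusted over 17951 genes, and was called at an adjusted p under 0.05 and a difference of at least 0.7 on the log2 scale. Of the 10 genes 1, Il6ra, was called, and it was lower in TG Me-X04+. Over all genes, 2.06% were called lower and 3.44% higher, and the median difference was -0.09, beside a median of -0.22 for the 10 genes. Scaled instead by the reads outside mitochondrial genes, which shifted the median of all genes by -0.27, 308 genes were called higher and 680 lower in place of 617 and 369, and with quantile normalization 421 and 407. All libraries of one group lay beyond those of the other for 1 of the 10 genes, beside 7.93% of all genes. In sorted bulk RNA, fewer cells of a kind and less RNA per cell cannot be told apart.

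Between TG Me-X04- and WT microglia none of the 10 genes was called by limma, and 1 of them, Tnf, had an unadjusted p under 0.05. No alternative, limma voom on the recovered reads included, called any of them. Over all genes 0.0111% were called lower and 0.189% higher, and 0 of the 10 genes, beside 1.06% of all genes, had groups that did not overlap. Between TG Me-X04+ and WT microglia 2 of the 10 genes were called, Il6ra and Il1a, both lower in TG Me-X04+. Over all genes 6.02% were called lower and 8.25% higher (1081 and 1481, or 1499 and 1237 when scaled by the reads outside mitochondrial genes, with a shift of the median of -0.16), and groups did not overlap for 2 of the 10 genes, beside 10.5% of all genes. The median differences of the 10 genes were -0.13 in each of these comparisons, beside 0.01 and -0.11 over all genes. The 3 comparisons share libraries, so a gene's values in them are not independent.

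**Figure D2:**
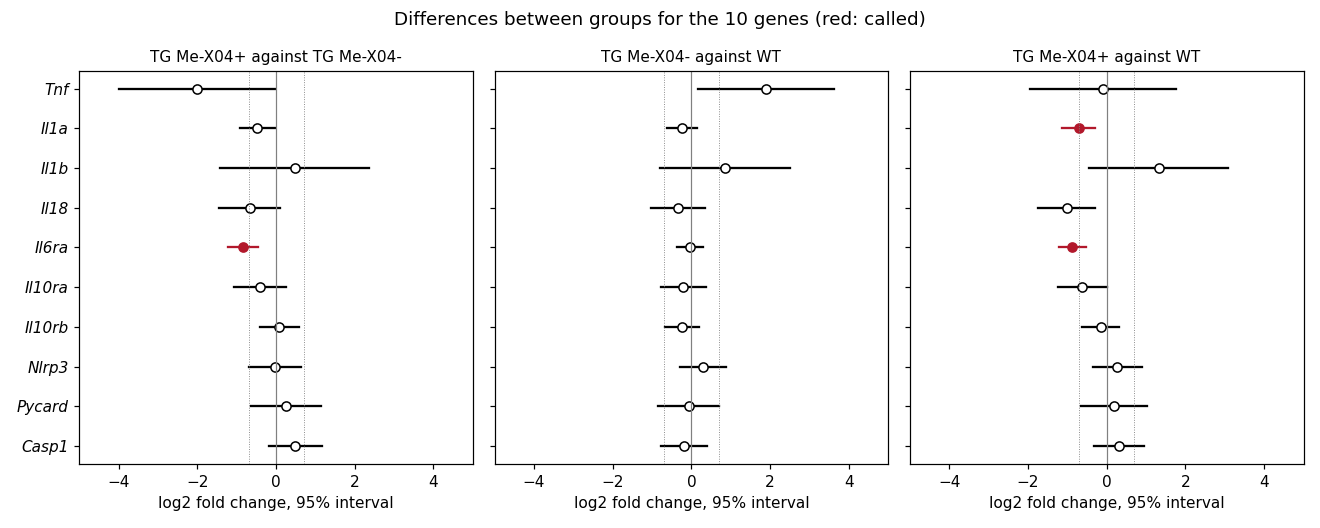
Difference in level between groups (log2 fold change, limma, with 95% interval) for the 10 genes in the 3 comparisons. Red marks called genes, and dotted lines stand at 0.7 and -0.7. Il6ra is at -0.84 between the TG groups and at -0.87 against WT, whereas the intervals of Tnf and Il1b span several log2 units.

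Among the receptor chains, Il6ra (ENSMUSG00000027947, GRCm38 chr3:89864059-89913196, minus strand) separated the groups. Its level was 5.39 in the lowest, 5.75 in the median and 5.84 in the highest WT library. In TG Me-X04- libraries 1 to 5 it was 5.78, 5.93, 5.61, 5.65 and 5.42. In TG Me-X04+ libraries 1 to 4 it was 4.45, 5.16, 4.75 and 4.99, so the highest TG Me-X04+ library was below the lowest library of either other group. Il6ra fell by 0.84 on the log2 scale from TG Me-X04- to TG Me-X04+ (SE 0.177, 95% interval -1.21 to -0.47, adjusted p = 0.00962, limma), which is 0.558-fold. Against WT it fell by 0.87 (SE 0.165, adjusted p = 0.00145), and between TG Me-X04- and WT it differed by -0.03 (95% interval -0.36 to 0.29, adjusted p = 0.999).

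The lower level of Il6ra was seen in each of the 4 animals with both libraries, with differences between -1.33 and -0.66, whereas 13.1% of all genes were lower in all 4. It was also seen within each set of libraries, at -1.05 in set A (2 against 2) and -0.69 in set B (2 against 3). Reads behind these levels were between 2490 and 6474 in TG Me-X04+ and between 6922 and 12657 in the other libraries. The fall between the TG groups kept its call in every alternative except the fit to those 2 groups alone, where the adjusted p was 0.0631 with the same difference, and against WT it kept its call in every alternative. Exons of Gm42809, on the opposite strand, overlap Il6ra, but that gene had between 0 and 250 reads in a library.

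Il10ra (ENSMUSG00000032089, chr9:45253837-45269149), the ligand-binding chain of the interleukin-10 receptor, was not called. Its level ranged from 4.53 to 5.73 in WT, from 4.46 to 5.39 in TG Me-X04- and from 4.10 to 5.31 in TG Me-X04+ libraries. The difference between the TG groups was -0.42 (SE 0.315, adjusted p = 0.533) and that between TG Me-X04+ and WT -0.62 (SE 0.295, adjusted p = 0.181, limma). In each of the 4 animals its TG Me-X04+ value was the lower one, with differences between -0.74 and -0.07. What separated its libraries most was the set: every library of set B was above every library of set A in the same group.

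Il10rb (ENSMUSG00000022969, chr16:91406164-91425834), the shared chain of the receptors of the interleukin-10 family, differed by 0.09 between the TG groups (95% interval -0.42 to 0.59, adjusted p = 0.890, limma) and by -0.15 between TG Me-X04+ and WT (adjusted p = 0.713). Its level lay between 3.08 and 4.11 over all 16 libraries, again higher in set B within each group. Gm21970, which overlaps its exons on the same strand, had between 751 and 3143 reads, so how reads were shared between these genes is uncertain. Within a library, Il10ra stood above Il10rb by 1.5 ± 0.297 in WT, by 1.54 ± 0.226 in TG Me-X04- and by 1.04 ± 0.136 in TG Me-X04+ microglia on the log2 scale. The lowest WT library, at 1.00, was within the TG Me-X04+ range of 0.89 to 1.20, and this difference was not tested.

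Among the cytokines, Il1a (ENSMUSG00000027399, chr2:129299610-129309972, minus strand) was the one called, in the comparison with WT. Its level was 4.71 in the lowest, 4.96 in the median and 5.71 in the highest WT library. In TG Me-X04- libraries 1 to 5 it was 4.51, 4.77, 5.12, 4.97 and 4.95, and in TG Me-X04+ libraries 1 to 4 it was 4.39, 4.26, 4.25 and 4.67. The TG Me-X04+ libraries were thus all below the WT libraries, with 4.67 next to 4.71 at the closest pair, but overlapped the TG Me-X04- libraries. Il1a fell by 0.71 from WT to TG Me-X04+ (SE 0.198, 95% interval -1.13 to -0.29, adjusted p = 0.0208, limma), just past the 0.7 threshold.

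The call of Il1a did not hold throughout. It was lost with library quality weights (-0.48, adjusted p = 0.0932), with median centring (-0.69), with log2(RPKM + 1) (-0.69), with limma voom (-0.69), and when WT replicate 1, 2 or 3 or TG Me-X04+ replicate 2 or 3 was left out (-0.69 to -0.61). Between the TG groups it differed by -0.47 (SE 0.211, adjusted p = 0.233), and TG Me-X04+ was the lower library in all 4 animals, with differences between -0.87 and -0.12. That difference was called with quantile normalization (-0.77, adjusted p = 0.0411) and with scaling by the reads outside mitochondrial genes (-0.75, adjusted p = 0.0444). Whether the difference from WT is larger than that from TG Me-X04- was not tested. Within the sets, TG Me-X04+ differed from WT by -1.11 in set A (2 against 3) and by -0.40 in set B (2 against 4). The 3 WT libraries of set A, at 5.21 to 5.71, were above the 4 of set B, at 4.71 to 4.96. The antisense gene Gm14023, whose exons overlap those of Il1a, had between 433 and 1341 reads, beside 544 to 1890 for Il1a, and differed by -0.60 between TG Me-X04+ and WT (adjusted p = 0.0958). The counting is not stated to use strand, so reads of Il1a and Gm14023 cannot be told apart and the level of Il1a is uncertain.

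Il1b (ENSMUSG00000027398, chr2:129364570-129371139, minus strand), the neighbour of Il1a on the same strand, was expressed at a level far below that of Il1a in all but the highest TG Me-X04+ libraries. Its level was -0.98 in the lowest, -0.56 in the median and 1.18 in the highest WT library. In TG Me-X04- libraries 1 to 5 it was 0.01, -0.73, 0.93, 1.61 and 1.29. In TG Me-X04+ libraries 1 to 4 it was -2.56, 0.98, 3.12 and 2.82, so TG Me-X04+ held both the lowest and the highest libraries of all. TG Me-X04+ replicate 1 had 3 reads of Il1b and replicate 3 had 377. The difference was 0.47 between the TG groups (95% interval -1.43 to 2.37, adjusted p = 0.833, limma) and 1.3 between TG Me-X04+ and WT (95% interval -0.45 to 3.09, adjusted p = 0.339).

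Single libraries decided these values of Il1b. Without TG Me-X04+ replicate 1 the difference from WT was 2.54 (adjusted p = 0.00979), and with library quality weights it was 2.58 (adjusted p = 0.0127). Without TG Me-X04+ replicate 3 or 4, that between the TG groups was -0.21 or -0.11. Within set B, TG Me-X04+ was above TG Me-X04- by 1.70 (2 against 3) and above WT by 3.55 (2 against 4), and TG Me-X04- above WT by 1.85 (3 against 4), with no overlap between these groups. Within set A the same differences were -0.43, -1.02 and -0.59, and the groups overlapped. Markers of neutrophils, cells that can carry Il1b and that a CX3CR1 gate would largely remove, summed to 21.0, 7.90, 7.96 and 0.4 RPKM in TG Me-X04+ libraries 1 to 4 (3 of 7 markers analysed), and to 26.0 RPKM in TG Me-X04- replicate 1. Il1b in these 4 libraries was at -2.56, 0.98, 3.12 and 2.82, as given above, and the part of neutrophils in its level was not tested. Il1bos, an antisense gene overlapping Il1b, had between 0 and 64 reads, in part as many as Il1b had, and without strand the reads of this pair cannot be told apart.

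Tnf (ENSMUSG00000024401, chr17:35199381-35202007, minus strand) had the fewest reads of the 10 genes. Its level was -3.39 in the lowest, -1.11 in the median and 0.26 in the highest WT library, from 1 to 47 reads. In TG Me-X04- libraries 1 to 5 it was 0.27, -1.34, 2.00, 1.75 and 1.01, from 11 to 178 reads. In TG Me-X04+ libraries 1 to 4 it was -4.10, -1.72, 0.06 and 0.71, from 0 to 61 reads. TG Me-X04- libraries were thus the higher ones as a group, but each pair of groups overlapped.

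The difference of Tnf was 1.90 between TG Me-X04- and WT (95% interval 0.17 to 3.63, adjusted p = 0.904, limma), -2.0 between the TG groups (95% interval -3.98 to -0.02, adjusted p = 0.261) and -0.10 between TG Me-X04+ and WT (95% interval -1.95 to 1.75, adjusted p = 0.961). None passed the threshold. In all 4 animals the TG Me-X04+ library was the lower one, with differences of -4.37, -0.39, -1.94 and -1.04 in animals 1 to 4. Within the sets, TG Me-X04- was above WT by 1.61 in set A (2 against 3) and by 2.01 in set B (3 against 4). In set B the TG Me-X04- libraries, at 1.01 to 2.00, were above all other libraries of both sets. Every library of set B was above every library of set A in both TG groups, and the deviations from the group means were 2.23 higher in set B.

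**Figure D3:**
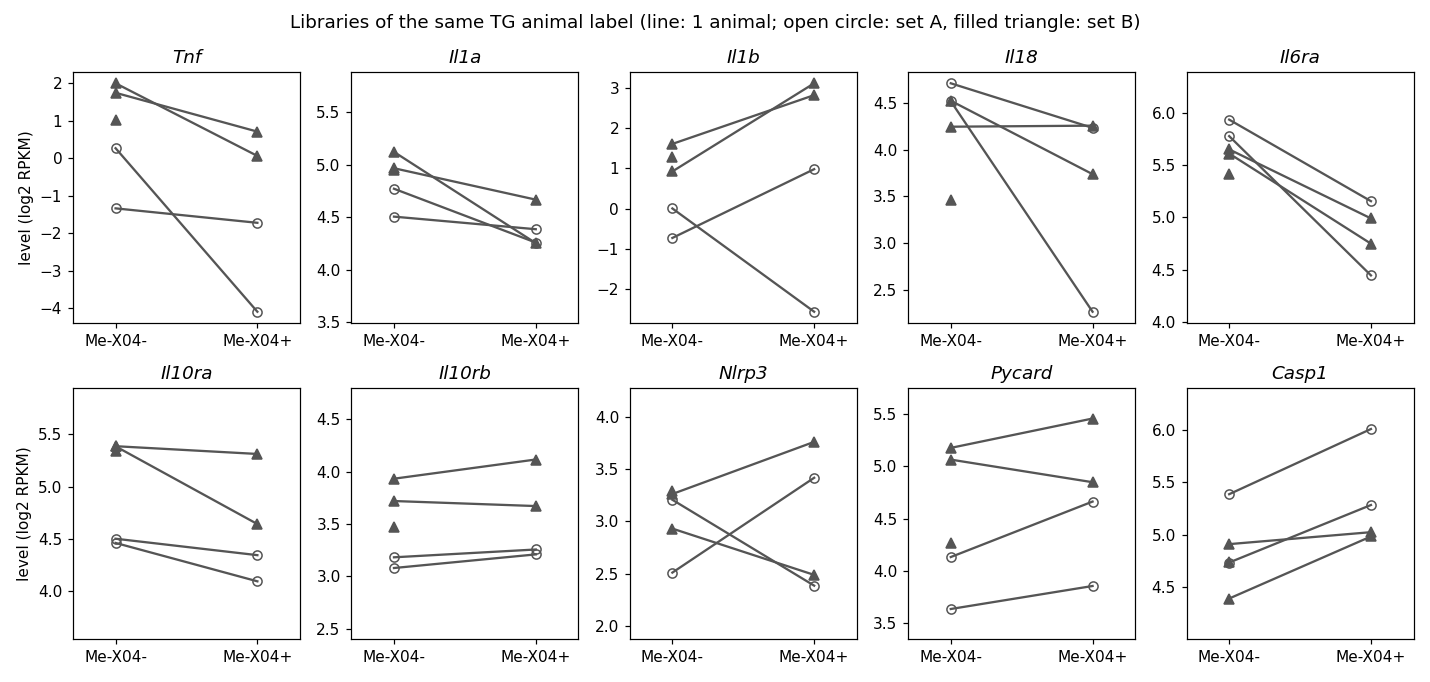
Levels (log2 RPKM) of the 10 genes in the TG libraries, with a line joining both libraries of an animal label (4 animals) and a lone point for TG Me-X04- replicate 5. Il6ra, Il1a, Il10ra and Tnf are lower in TG Me-X04+ in all 4 animals and Casp1 is higher in all 4.

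Il18 (ENSMUSG00000039217, chr9:50554827-50581840), whose product is cut by caspase-1 like that of Il1b, was well expressed in all groups but not called. Its level was 4.15 in the lowest, 4.62 in the median and 5.11 in the highest WT library. In TG Me-X04- libraries 1 to 5 it was 4.52, 4.71, 4.53, 4.25 and 3.46, and in TG Me-X04+ libraries 1 to 4 it was 2.26, 4.24, 3.74 and 4.26. TG Me-X04+ replicate 1, with 44 reads, stood far below the others, and the remaining TG Me-X04+ libraries overlapped both other groups. The difference from WT was -1.01 (SE 0.343, adjusted p = 0.0571, limma) and that between the TG groups -0.67 (SE 0.367, adjusted p = 0.351).

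The difference of Il18 from WT was past the threshold with the replicate block (-1.33, adjusted p = 0.026, limma) and with a term for the 2 sets of libraries (-1.03, adjusted p = 0.03). It also was with 3 other alternatives and without TG Me-X04+ replicate 2 or 4. The replicate block ties WT libraries to TG animals of the same number, and the sets were drawn from these same values. Without TG Me-X04+ replicate 1 it was -0.56, so that library set much of its size. In TG Me-X04- replicate 5, which has no TG Me-X04+ partner, Il18 was at 3.46, below every WT library.

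Of the 3 inflammasome genes none was called. Nlrp3 (ENSMUSG00000032691, chr11:59541568-59566956), the sensor, ranged from 2.24 to 3.39 in WT, from 2.51 to 3.29 in TG Me-X04- and from 2.39 to 3.76 in TG Me-X04+ libraries. Its difference between the TG groups was -0.03 (95% interval -0.69 to 0.63, adjusted p = 0.976, limma), with 2 animals lower and 2 higher in TG Me-X04+, and it differed by 0.30 between TG Me-X04- and WT (adjusted p = 0.999). The 3 WT libraries of set A, at 2.24 to 2.53, were below the 4 of set B.

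Pycard (ENSMUSG00000030793, chr7:127989708-127993867), the adaptor gene, differed by 0.25 between the TG groups (95% interval -0.64 to 1.14, adjusted p = 0.810, limma), by -0.07 between TG Me-X04- and WT (adjusted p = 0.999) and by 0.18 between TG Me-X04+ and WT (adjusted p = 0.819). Its spread within groups was wide, with SDs between 0.651 and 0.728, and every library of set B was above every library of set A in the same group. Casp1 (ENSMUSG00000025888, chr9:5298517-5307265), the protease gene, was higher in the TG Me-X04+ library of all 4 animals, by 0.11 to 0.62 on the log2 scale, whereas 15.1% of all genes were higher in all 4. Its difference between the TG groups was 0.49 (SE 0.322, 95% interval -0.18 to 1.17, adjusted p = 0.451) and that between TG Me-X04+ and WT 0.30 (adjusted p = 0.575).

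The sets moved Casp1 and Pycard in opposite directions. Casp1 was between 5.40 and 5.93 in the WT libraries of set A and between 4.43 and 4.78 in those of set B, while Pycard was between 3.15 and 4.29 in set A and between 4.75 and 5.25 in set B. The difference of Casp1 over Pycard within a WT library therefore ranged from -0.82 to 2.77 on the log2 scale, with a mean of 0.50 in WT libraries, while the mean was 0.37 in TG Me-X04- libraries and 0.62 in TG Me-X04+ libraries. Over the 10 genes, the deviations from the group means were higher in set B by more than 0.4 for Tnf, Il1b, Il10ra, Il10rb, Nlrp3 and Pycard, and higher in set A by 0.74 for Casp1. The mitochondrial share moved with the sets as well, and its part in these levels was not tested.

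To describe the levels most like those of the called genes, Pearson's r was taken over the 16 libraries, which share the groups and the sets. For Il6ra the most alike genes were Kdm6b, which encodes a histone H3K27 demethylase, at 0.937 and Fra10ac1 at 0.932, and for Il1a they were Tm6sf1 at 0.913 and Ccdc162 at 0.896. Taken within groups, these values were 0.653, 0.705, 0.845 and 0.824.

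The other genes of these pathways were taken as 4 lists of 108 genes, of which 87 were among the genes analysed here. Between the TG groups 9 of the 87 were called, 7 lower and 2 higher in TG Me-X04+ (14 and 0 if scaled by the reads outside mitochondrial genes). Over all genes the shares were 2.06% lower and 3.44% higher. Without TG Me-X04- replicate 3, 4 or 5 the count was 4, 5 or 4. With a term for the 2 sets of libraries, which were drawn from these same values, it was 21. Between TG Me-X04- and WT limma called 0, with 7 at an unadjusted p under 0.05, and voom called 0. Between TG Me-X04+ and WT 22 were called, 7 higher and 15 lower, beside 8.25% higher and 6.02% lower over all genes. The same shares stand beside the counts of each list below. The medians of the 87 were -0.12, 0.08 and -0.09 in these comparisons, close to those of all genes given above.

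Of 18 other cytokines and soluble antagonists, 3 were called between the TG groups (1 higher, 2 lower) and 6 between TG Me-X04+ and WT (3 higher, 3 lower), with medians of -0.56 and -0.41. Il1rn, which encodes the antagonist that blocks the interleukin-1 receptor, rose in TG Me-X04+. It had between 0 and 32 reads in WT, between 19 and 60 in TG Me-X04- and between 143 and 514 in TG Me-X04+ libraries. It was 3.03 higher on the log2 scale than in TG Me-X04- (SE 0.824, adjusted p = 0.0386, limma) and 5.83 higher than in WT (adjusted p = 6.36e-05). Against TG Me-X04- the call of Il1rn was lost with the replicate block (2.85, adjusted p = 0.0738), with scaling by the reads outside mitochondrial genes and without TG Me-X04- replicate 1, 3, 4 or 5 or TG Me-X04+ replicate 1 or 2 (adjusted p up to 0.127), and against WT it held without each library.

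Tnfsf8, the ligand of CD30, was at 3.51 ± 0.278 in TG Me-X04+ and at -1.24 ± 2.01 in WT libraries, a rise of 4.74 (adjusted p = 0.000724), and Mif, the macrophage migration inhibitory factor, rose by 2.86 against WT (adjusted p = 0.0139). Il16 fell by 0.78 against TG Me-X04-, a call lost with the replicate block (-0.76, adjusted p = 0.0777) and in 6 of 9 fits without a library, and by 1.02 against WT (adjusted p = 0.0320 and 0.00136), and Il15 fell by 1.16 against WT (adjusted p = 0.0181), though not past the threshold without TG Me-X04+ replicate 2. Tslp, a cytokine best known from epithelia, had between 10 and 34 reads in the other libraries and 0 in all 4 TG Me-X04+ libraries, so it was at least 6.72-fold lower than in TG Me-X04- and at least 5.56-fold lower than in WT, with a floor of 3 reads per TG Me-X04+ library. The medians of the list were the same with Tslp at these bounds. Ebi3 and Tnfsf12, the highest of those not called, differed by -0.62 and -0.79 between the TG groups (adjusted p = 0.238 and 0.549).

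Of 25 other cytokine receptors, 3 were called between the TG groups (1 higher, 2 lower) and 6 between TG Me-X04+ and WT (2 higher, 4 lower). Il7r, the interleukin-7 receptor chain, fell most, from 3.59 ± 0.611 in TG Me-X04- to 1.04 ± 0.350 in TG Me-X04+ (adjusted p = 0.000427), and was at 3.90 ± 0.514 in WT. Ifngr1, the ligand-binding chain of the interferon gamma receptor, fell by 0.86 (adjusted p = 0.0319), a change of the size of that of Il6ra. Il1rl1, the receptor of interleukin-33, rose by 1.57 (adjusted p = 0.0466), but this call was lost with the replicate block (1.57, adjusted p = 0.0588) and in 7 of 9 fits without a library, all but those without TG Me-X04- replicate 2 or TG Me-X04+ replicate 4. The call of Ifngr1 between the TG groups was lost in 7 of these 9 fits as well (adjusted p up to 0.093), and that of Il7r in 0. Il1r1, the receptor of both IL-1 ligands and of the antagonist, rose by 4.19 against WT (adjusted p = 0.000191), from 2 to 47 reads in WT to 188 to 479 in TG Me-X04+ libraries, and its groups did not overlap in any comparison. Il17ra and Tnfrsf1b fell against WT by 0.83 and 0.84 (adjusted p = 0.0459 and 0.00897), and the call of Il17ra was lost in 8 of 11 fits without a library and that of Tnfrsf1b without TG Me-X04+ replicate 1. Csf2ra and Ifnar2, the highest not called, differed by 1.77 and 0.82 from WT (adjusted p = 0.0596 and 0.0686).

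Of 20 other inflammasome and pyroptosis genes, 2 were called lower between the TG groups, and 7 were called between TG Me-X04+ and WT (1 higher, 6 lower). Txnip, whose product binds NLRP3, fell by 1.31 against TG Me-X04- (adjusted p = 0.00105) and by 1.75 against WT (adjusted p = 7.08e-06). Gsdmd, the pore-forming substrate of caspase-1, fell by 0.98 and 1.07 (adjusted p = 0.0278 and 0.00381), the former a call lost in 5 of 9 fits without a library, whereas that of Txnip was lost in 0. Against WT the sensors Nlrp1b and Nlrp1a fell by 1.21 and 1.00, Casp8 by 1.17 and P2rx7, the ATP-gated channel upstream of NLRP3, by 0.86 (adjusted p = 0.00166, 0.0225, 0.000257 and 0.000499). P2rx4, another ATP-gated channel, rose by 0.80 (adjusted p = 0.0265), a call lost without TG Me-X04+ replicate 3 or 4. The call of P2rx4 was also lost with quantile normalization and with scaling by the reads outside mitochondrial genes. Nlrp1a and Nlrp1b are close paralogs, between which reads could be split, and the call of Nlrp1a was lost with the replicate block (-0.87, adjusted p = 0.087) and without TG Me-X04+ replicate 2. Aim2 and Nek7, the highest not called, differed by 0.01 and 0.48 between the TG groups (adjusted p = 0.987 and 0.550).

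Of 24 genes of cytokine signalling and its control, 1 was called between the TG groups and 3 between TG Me-X04+ and WT (1 higher, 2 lower). Socs3, a feedback inhibitor of interleukin-6 signalling, fell by 2.29 against TG Me-X04- (adjusted p = 0.00748, limma), from 111 to 226 reads to 9 to 83 reads. That call was lost with the replicate block over the 4 animals with both TG libraries. Against WT Socs3 fell by 1.58 (adjusted p = 0.0191), a call lost with the replicate block (-1.32, adjusted p = 0.116) and without TG Me-X04+ replicate 1 or 2. Il6ra and Socs3 thus were both called lower in TG Me-X04+, while Il6, the ligand, differed by -0.90 between the TG groups (SE 0.379, adjusted p = 0.200). The partner chain Il6st had differences of the other sign, 0.90 between the TG groups and 1.07 against WT. Neither was called (adjusted p = 0.203 and 0.0538, limma). Nfkbiz, a regulator of NF-κB target genes, rose by 1.82 against WT (adjusted p = 0.000240) and Peli1, a ubiquitin ligase of receptor signalling, fell by 0.71 (adjusted p = 0.00374), a call lost in 4 of 11 fits without a library. Zfp36 and Tab2, the highest not called, differed by 0.40 and -0.14 between the TG groups (adjusted p = 0.338 and 0.898).

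**Figure D4:**
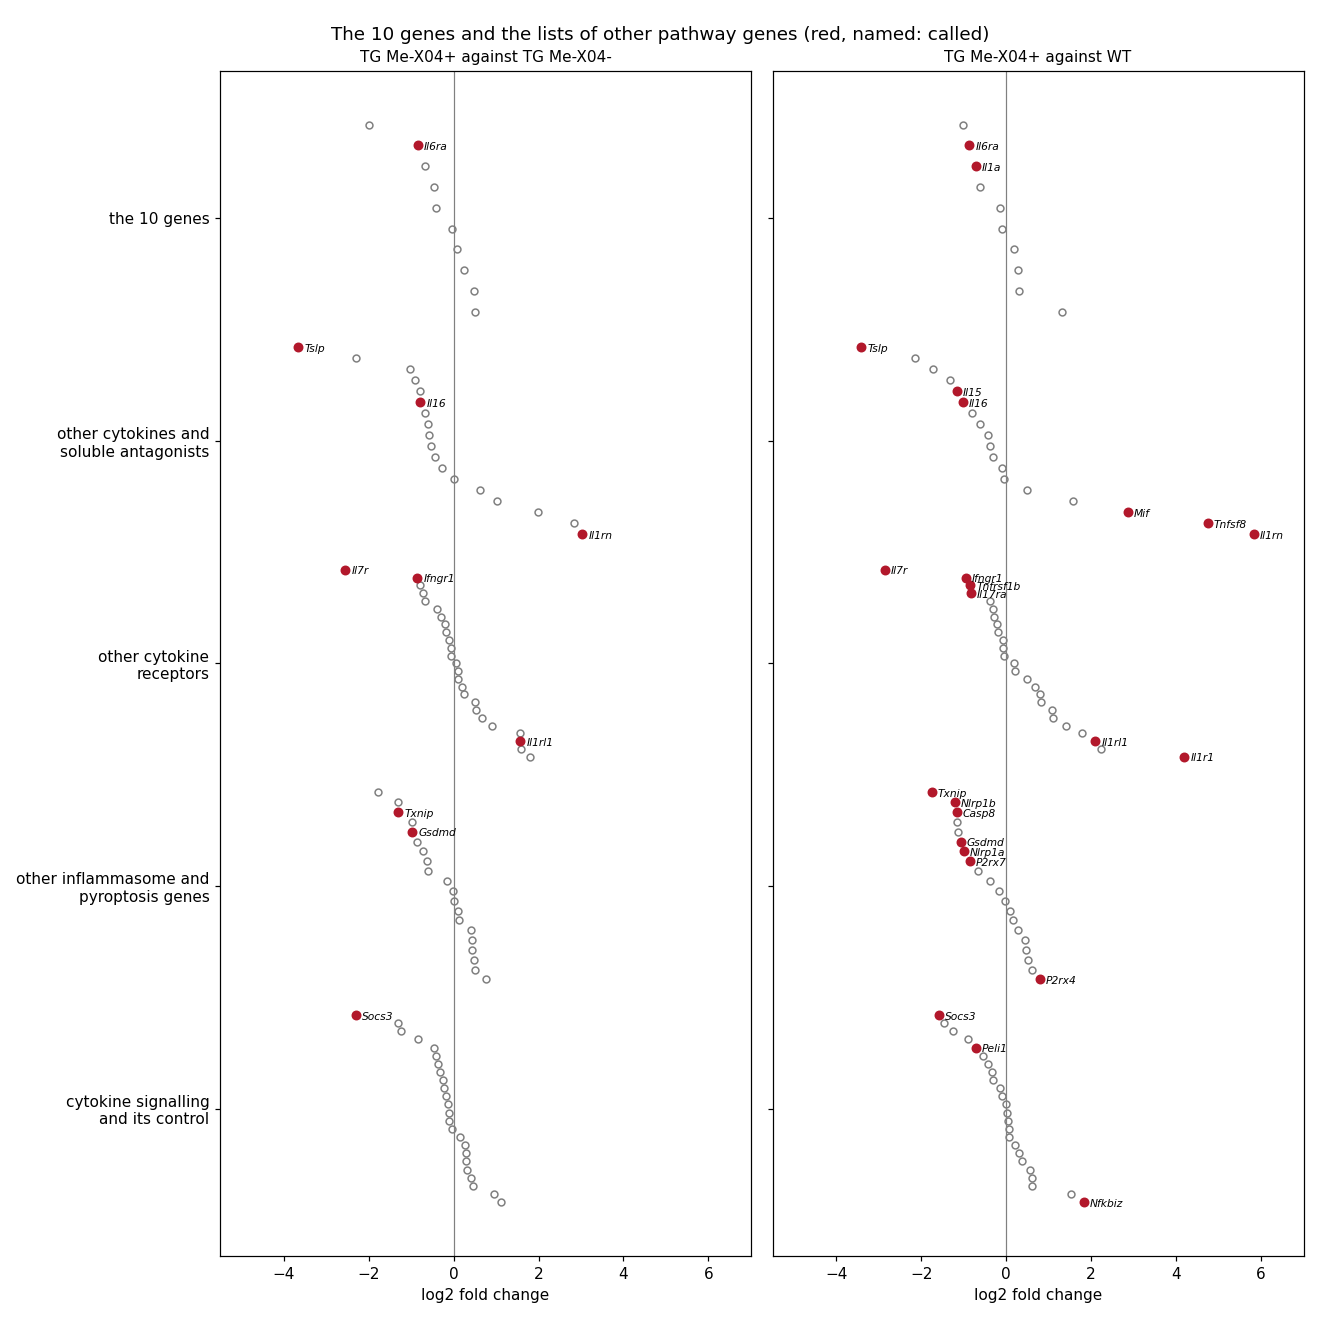
Differences in level (log2 fold change) of the 10 genes and of the 4 lists of other pathway genes, for TG Me-X04+ against TG Me-X04- (left) and against WT (right). Each point is a gene, ordered by its difference within a list, and red points with names are called. Il1rn, at 3.03 and 5.83, is the highest called gene in both panels, and Tslp, plotted with the prior that the authors added, the lowest.

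Because tissue dissociation itself can induce cytokine and immediate early genes, a list of 14 such genes was followed beside the members, of which 12 were analysed. Their summed level was between 51.4 and 80.5 RPKM in WT, between 73.8 and 126 in TG Me-X04- and between 291 and 378 RPKM in TG Me-X04+ libraries, which did not overlap the others, while the WT and TG Me-X04- ranges overlapped. Ccl3 alone gave 222 to 270 RPKM of the sum in TG Me-X04+, and without it the sums were 44.3 to 69.5, 45.0 to 81.4 and 69.8 to 123 RPKM. Between the TG groups 7 of the 12 genes had positive and 5 negative differences, the latter Junb, Ier5, Btg2, Hspa1a and Hspa1b. Between the TG groups 3 of the 12 were called, all higher, beside 3.44% of all genes called higher. They were the chemokines Ccl3 and Ccl4, by 2.73 and 2.21 (adjusted p = 0.000230 and 0.0107, limma), and Atf3 by 1.84 (adjusted p = 0.0258). Between TG Me-X04+ and WT 4 were called higher and 3 lower, the latter Ier5, Hspa1a and Hspa1b, beside 8.25% and 6.02% of all genes. Between TG Me-X04- and WT 1 was called, Ccl3, higher by 2.20 (adjusted p = 0.00157, limma), beside 0.189% of all genes called higher. Tnf and Il1b are themselves known to respond to cell isolation, and its part in their levels was not tested. The inflammatory chemokines Ccl3 and Ccl4 were thus called higher in TG Me-X04+ microglia, and Ccl3 also in TG Me-X04- microglia against WT. None of the 4 cytokines was called higher in either TG group.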

How the data were processed

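Libraries were grouped by their GEO titles into 3 groups, WT and the TG groups Me-X04- and Me-X04+. RNA was prepared with Ovation RNA-Seq System V2 kits. Per the submitters' processing notes and the study's methods, the authors trimmed reads with Trim Galore 0.4.4, aligned them to GRCm38 with STAR 2.5.4b, counted them with featureCounts, and filtered and scaled them with edgeR 3.24.3. Sequencing used a pair of instruments, and which library was run on which is not given in the sources used here. The authors deposited log2 RPKM values for 17951 genes, with a prior of 2 reads at the mean library size. They also deposited p-values, score columns (t and B statistics) and log2 fold changes of comparisons of their own, none of which was used.

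Reads were recovered from the equal steps of the values in each library (100% whole within 0.01). They gave depths and an alternative test. The main test was limma 3.58.1 (R 4.3.3) on the deposited values (lmFit with 1 coefficient per group, eBayes with a variance trend, two-sided, Benjamini-Hochberg over 17951 genes). The study's own test, a quasi-likelihood test on counts, was not run on the recovered reads, and limma voom was. Fold changes are on the log2 scale with that prior, which understates changes of low genes. The precision rests on the spread between libraries. The fit was checked on simulated reads drawn independently for each library. These held no sets of libraries and no shared animals, so the check does not speak to either.

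The 10 genes, the pathway and marker lists and the tests were chosen with earlier results of these data known. Named from each list were every gene called in any comparison, at most 8, and the 2 highest not called, and for each called member the 2 genes with the highest Pearson's r. Il6, Il6st, Ccl3, Ccl4, Atf3, Ier5, Hspa1a, Hspa1b, Junb and Btg2 were named after their values were seen.

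Same-numbered TG libraries share an animal label, and their deviations from the group means correlated at 0.292 to 0.329 in the 4 pairs. Libraries of other numbers in the same set, 1 from each TG group, correlated at 0.221 to 0.332. These values thus do not set the animal apart from the set of libraries. WT libraries of the same number are other animals, but the replicate block over all 16 libraries ties them to the TG libraries. A further replicate block used only the 4 animals with both TG libraries. Alternatives were other variance models, library weights, scalings, pseudocounts of 1 and 0.1, filters at a mean log2 RPKM of 0 and 2, only the 2 groups compared, no fold threshold, limma voom, a replicate block, the set of the library as a term, and each library left out. The sets were drawn from the spread within groups of these same values, so a term for them lowers that spread by construction. Calls gained with it are no separate support. Plots used Python 3.11.15 and matplotlib 3.10.9.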

Additional observations from a re-analysis of the deposited data

Results flagged for a closer look

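Of 30 groups of libraries tested, 10 genes in each of 3 groups, 1 held a library far from the others, where chance gives about 1 in 20. Il6ra was at 5.39 log2 RPKM in WT replicate 6, from 9125 reads, below the next WT library at 5.71. The gap of 0.319 was 0.713 of the range of the WT libraries. The library was still above all TG Me-X04+ libraries, and Il6ra kept its call against WT without it.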

How the results depend on the processing

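Between the TG groups, 1 of the 10 genes was called in 13 of 16 alternatives. The count was 2 with quantile normalization and 2 with scaling by the reads outside mitochondrial genes, where Il1a was added, and 0 with only the 2 groups compared. Against WT it was 2 in the report, 1 with median centring, 1 with log2(RPKM + 1), 1 with limma voom, 3 with quantile normalization, scaling by the reads outside mitochondrial genes, the filter at 2, the replicate block or the set term, where Il18 was added, and 1 to 3 with a library left out. Between TG Me-X04- and WT it was 0 throughout. The cause was not tested. The numbers of pathway genes between the TG groups, in place of 9, were 15 with quantile normalization, 14 with scaling by the reads outside mitochondrial genes, 21 with a term for the 2 sets and 4 to 10 with a library left out. Between TG Me-X04- and WT they were 2 with library weights and 0 to 1 with a library left out (1 without WT replicate 1). Over all genes, the counts between the TG groups, in place of 986, were 655 with a mean of at least 2, 470 with only 2 groups, 2142 with the set term and 552 to 1021 with a library left out (552 without TG Me-X04- replicate 5, 624 without TG Me-X04+ replicate 2). Between TG Me-X04- and WT, in place of 36, they were 175 with library weights, 13 with log2(RPKM + 1), 19 and 16 with filters at 0 and 2, 18 with the replicate block, 101 with the set term and 19 to 33 with a library left out (19, 23 and 23 without TG Me-X04- replicates 1, 3 and 4). Between TG Me-X04+ and WT, in place of 2562, they were 1419 with a mean of at least 2 and 3919 with the set term. The replicate block groups all 16 libraries by number. It pairs the TG libraries by animal but also ties WT libraries of other animals to them. It changed no call of the 10 genes other than that of Il18 against WT (-1.33). With the block over the 4 animals with both TG libraries alone, Il6ra kept its call between the TG groups. Of the pathway genes called between the TG groups, the block over all libraries lost Il16, Il1rn and Il1rl1, and of those called against WT, Nlrp1a and Socs3. Between the TG groups, the block over the 4 animals lost Il16, Il1rl1 and Socs3 and kept Il1rn.

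Values close to 0 changed sign, and none of these was called. For TG Me-X04+ against WT, Tnf was 0.14 with library weights, 0.32 with quantile normalization, 0.10 with log2(RPKM + 1), 0.0509 with log2(RPKM + 0.1), 0.55 with the replicate block, 0.0590 with the set term and -0.76 to 0.84 with a library left out. With quantile normalization Casp1 was -0.0469 and Pycard -0.14, and Pycard was -0.0665 to 0.47 with a library left out. For TG Me-X04- against WT, library weights gave 0.0482 for Casp1 and 0.0587 for Il1a, scaling by the reads outside mitochondrial genes gave 0.0833 for Il6ra and 0.0473 for Pycard, and the replicate block 0.0606 for Pycard. With a library left out Il6ra was -0.0947 to 0.0349 and Pycard -0.29 to 0.14. Between the TG groups, Il10rb was -0.11 and Pycard -0.0914 with quantile normalization, and -0.187 and -0.0237 with scaling by the reads outside mitochondrial genes. Nlrp3 was 0.0040 with median centring, 0.0378 with the replicate block over all libraries, 0.0353 over the 4 animals, and 0.0167 with the set term. With a library left out, Nlrp3 was -0.28 to 0.18, Il10rb -0.10 to 0.20, Pycard -0.00038 to 0.53 and Il1b -0.21 to 1.69. A library held 0 to 178 reads of Tnf and 3 to 377 of Il1b, and the part of depth in the spread of these genes was not tested.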
